A study of Mus musculus with 2 samples.

Results

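The genes described here encode the heat shock proteins, the J proteins, the chaperonins and their regulators. They are the protein coding genes whose symbols place them in the Hsp, Dnaja, Dnajb, Dnajc, Cct, Hsf or Bag families, with Tcp1 and Stip1 added and pseudogenes left out. The rule gave 94 genes of 21474 protein coding genes and 43346 mouse genes in the tables, and the rule itself uses symbols and gene types, not measured values. A further symbol that fits the rule, Hspa14, was not matched by its identifier in the tables.

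Total RNA was sequenced from 2 pools of hematopoietic stem cells, scarce marrow cells able to rebuild every blood lineage for life. Each library came from 100 cells of male C57BL/6J mice aged 5 to 6 weeks, from RNA longer than 200 nucleotides, and the labels name no treatment and no mutation. The labels number the pools as biological replicates 1 and 2 but give both the same donor identifier, and the sources used here do not say whether separate animals were used. Differences between the pools may thus be technical in part, and the gate by which cells were sorted is likewise not stated in those sources.

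Chaperones bind unfolded or partly folded proteins and help them fold, assemble or be degraded. Hsp70 proteins bind and release short stretches of their clients by hydrolysing ATP. J proteins deliver clients and start that hydrolysis, and nucleotide exchange factors of the Bag and Hsp110 families end it. Hsp90 acts later on kinases and receptors, and the ring-shaped chaperonins enclose a client in a chamber. A subset of these genes is held low until heat shock factor 1, a transcription factor, binds heat shock elements in their promoters. In blood stem cells, low protein synthesis and control of protein folding have been linked to self-renewal.

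The sequences below show matches to that element before RefSeq starts of genes known for stress induction, and their levels in the pools follow. They are RefSeq sequences of GRCm38.p6, read 5′ to 3′ on the gene's strand, with the letters of each element in capitals. The element was searched only as GAANNTTC or TTCNNGAA, and element below means such a match. A match to these 8 letters does not show that heat shock factor 1 binds, which was not tested. Each spelling is its own reverse complement, so both strands read alike, and neighbouring elements may overlap. Hspa1a and Hspa1b encode the stress-inducible Hsp70 and lie near each other on the minus strand of chromosome 17, at chr17:34972157-34972296 and chr17:34959239-34959378 for the 140 bases before each start. Hspb1 encodes Hsp25, and its 140 bases lie at chr5:135887779-135887918 on the plus strand.
Hspa1a: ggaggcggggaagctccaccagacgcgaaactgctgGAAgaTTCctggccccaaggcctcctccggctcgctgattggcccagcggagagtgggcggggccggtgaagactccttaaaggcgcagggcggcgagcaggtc
Hspa1b: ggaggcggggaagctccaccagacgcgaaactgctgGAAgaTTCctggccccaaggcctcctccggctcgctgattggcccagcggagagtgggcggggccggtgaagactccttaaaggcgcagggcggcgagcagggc
Hspb1: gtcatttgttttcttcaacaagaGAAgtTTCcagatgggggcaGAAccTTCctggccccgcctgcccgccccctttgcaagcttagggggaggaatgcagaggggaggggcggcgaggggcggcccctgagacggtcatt
The stretches of Hspa1a and Hspa1b were identical at 139 of 140 bases (99.3%), each with 1 element that began 104 bases before the start. Hspb1 held 2 elements, the first of which began 117 bases before the start. Shorter stretches of 30 bases are shown for Hsph1, an Hsp110 gene (chr5:149636351-149636380, minus strand), and for Hspe1, which encodes mitochondrial Hsp10 (chr1:55088053-55088082, plus strand). By the GENCODE positions used here for genes, Hsph1 starts at base 149636376, so its marked element lies within the gene. The Hspe1 stretch lies before Hspe1 (from base 55088132) but within Hspd1 (to base 55088243).
Hsph1: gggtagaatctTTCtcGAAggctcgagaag
Hspe1: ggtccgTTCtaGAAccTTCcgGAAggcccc
Hspe1 held 3 overlapping elements, the first of which began 89 bases before its RefSeq start. The gene of its partner Hsp60, Hspd1, is read from the other strand, and the RefSeq starts of the pair lie 215 bases apart, so the same elements fell in the window of Hspd1.

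Of the 94 genes, 76 were matched in the RefSeq promoter table, and 21 of these (27.6%) held the element in the 300 bases around a start, against 17.0% of all 27025 genes of the table. Among the stress-inducible cytosolic genes 8 of 9 matched genes held it (88.9%), against 1 of 6 constitutive cytosolic genes (16.7%). Of the 10 stress-inducible genes listed, Hsp90aa1 and Dnajb1 had no element found, and the gene not matched is 1 of these. The near-identical Hspa1a and Hspa1b each count among the 8. Mitochondrial genes held it in 2 of 5 cases, Hspd1 and Hspe1, and endoplasmic reticulum (ER) genes in 1 of 11, Dnajc10. For 2 of the 8 stress-inducible genes, Bag3 and Hspb8, the element lay only after the RefSeq start. The stress-inducible list was drawn up from textbook knowledge of heat shock factor targets, so its share is a description and no independent evidence of regulation in these cells.

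Replicate 1 held 48313341 deposited expected counts and replicate 2 held 28947093, of which 300168 and 167235 fell on the 94 genes. Levels are TPM, which are scaled by transcript length and to a fixed sum per library, given per library and as mean ± SD (n = 2 throughout). Detection required at least 1 TPM together with an expected count of 10 or more. Since there is 1 group, no groups could be tested against each other, and differences are set against the spread between the libraries. Of 12 stem and progenitor markers, 11 were detected in both libraries, the exception being the stem cell marker Slamf1 with 2.87 TPM in replicate 1 and 0.36 TPM in replicate 2. The list also holds Flt3 (58.6 and 42.9 TPM) and Cd48 (22.95 and 8.51 TPM), which mark progenitors rather than stem cells. For mature neutrophil and monocyte markers the median was 0.02 TPM in replicate 1 but 15.6 TPM in replicate 2, with 2 of 12 detected in both and sums of 8.48 and 348 TPM. B cell markers summed to 73.5 and 2193 TPM, of which Ighm made up 64.5 and 2157 TPM, and 3 of 10 were detected in both. All 12 erythroid markers were detected in both libraries and summed to 2511 and 2244 TPM, of which Car1 made up 1333 and 1071 TPM, against 710.3 and 514 TPM for the stem and progenitor list. The neutrophil, monocyte and B cell lists were thus higher in replicate 2, and their part in the chaperone levels was not tested. In bulk RNA, fewer cells of a type and less RNA per cell cannot be told apart.

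Chaperone genes were widely detected and a few of them dominated. In both libraries 68 of the 94 were detected (72.3%), against 45.5% of all protein coding genes. A further 4 passed in replicate 1 only (Hspb8, Hsf5, Hspa12a and Dnajc12), 4 in replicate 2 only (Hspb11, Hsf2, Dnajb5 and Dnajc27), and 18 in neither, of which 12 had no count in either library. The mean level was at least 100 TPM in 7 genes, 10 to 100 TPM in 41, 1 to 10 TPM in 24 and under 1 TPM in 22. The median over the 94 genes was 11.9 TPM (replicate 1) and 10.7 TPM (replicate 2), against 0.21 and 1.02 TPM over all protein coding genes. Among genes detected in both libraries the gap was smaller, with medians of 20.2 and 21.7 TPM for the chaperone genes against 14.01 and 12.5 TPM for 9780 coding genes. The 94 genes made up 0.438% of nuclear coding genes and 1.79% and 1.91% of nuclear coding TPM.

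**Figure D1:**
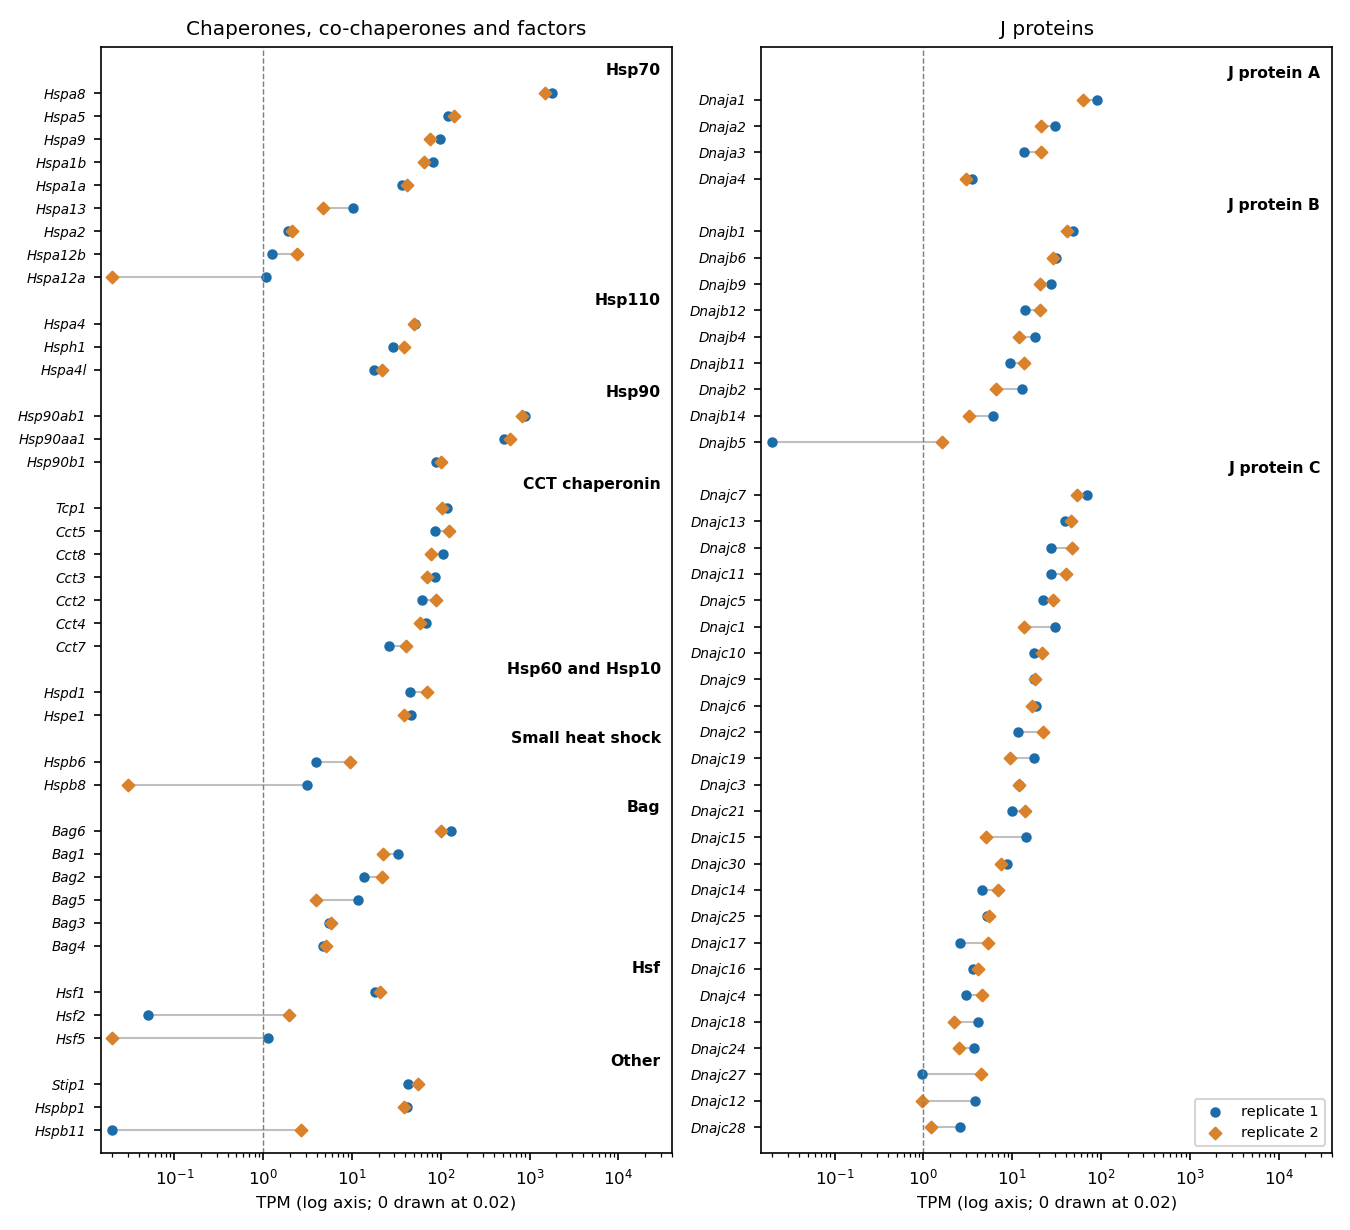
TPM (log axis, 0 drawn at 0.02) of the 76 chaperone genes detected in at least 1 library, grouped by family, with a circle for replicate 1 and a diamond for replicate 2 of each gene. Hspa8, Hsp90ab1 and Hsp90aa1 stand above 500 TPM in both libraries, and the widest gaps between libraries belong to genes near the dashed detection line at 1 TPM.

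The Hsp70 family was led by Hspa8, which encodes the constitutive cytosolic Hsc70 (chr9:40800984-40810087, plus strand). Hspa8 had 1809 TPM in replicate 1 and 1487 TPM in replicate 2 (1648 ± 227 TPM). It ranked 3 of 21461 nuclear coding genes in each library and carried 33.6% and 29.4% of the TPM of all 94 genes. Hspa5, which encodes the ER chaperone BiP (chr2:34771970-34777547, plus strand), had 121 TPM in replicate 1 and 141 TPM in replicate 2. Hspa9, which encodes the mitochondrial mortalin (chr18:34937414-34954357, minus strand), had 96.8 and 76.2 TPM. Hspa8 therefore stood 12.5-fold above Hspa5 (log2 ratio 3.65 ± 0.35) and 19.1-fold above Hspa9 (4.25 ± 0.04), differences many times larger than the spread between the libraries. Counting only transcripts typed as coding, the log2 ratios were 3.98 to Hspa5 and 3.70 to Hspa9.

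The stress-inducible Hsp70 genes were present far below Hspa8. Hspa1b had 81.9 TPM in replicate 1 and 65.1 TPM in replicate 2 (73.5 ± 11.9 TPM), and Hspa1a had 37.0 and 41.6 TPM (39.3 ± 3.22 TPM). Their transcripts are 99.2% identical over 2201 bases, so the division between them rests on how reads were shared out and is uncertain. Their sum was 119 TPM in replicate 1 against 107 TPM in replicate 2, which equalled 6.58% and 7.17% of Hspa8. On coding transcripts only, the sum equalled 12.9% and 13.3% of Hspa8, since much of the TPM of Hspa8 lay on other transcripts. Hspa1a and Hspa1b have only 1 transcript listed each, typed as coding, so only the level of Hspa8 could change. Their gene neighbour Hspa1l, a testis gene of the same family, had no count in either library, which allows up to 0.0398 TPM in replicate 1 and 0.0706 TPM in replicate 2. Limits of this kind rest on 3 counts in a library and cover counting error only.

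The remaining Hsp70 genes were low. Hspa13, an ER-associated member, had 10.4 TPM in replicate 1 and 4.72 TPM in replicate 2. Hspa2, a gene of germ cells and other tissues, had 1.88 and 2.12 TPM, and Hspa12b, a distant endothelial member, 1.27 and 2.42 TPM. Its relative Hspa12a had 1.09 TPM in replicate 1 from 196 counts and no count in replicate 2, which allows up to 0.0295 TPM there. All 3 genes of the Hsp110 family, whose products release nucleotide from Hsp70, were detected in both libraries. Hspa4 had 51.1 and 49.6 TPM, the stress-inducible Hsph1 29.3 and 38.7 TPM, and Hspa4l 17.9 and 21.6 TPM. Hsph1 lay below Hspa4 in both libraries (log2 ratio -0.58 ± 0.31).

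Both cytosolic Hsp90 genes were abundant, including the one known as inducible. Hsp90ab1, the constitutive gene (chr17:45567775-45573271, minus strand), had 878 TPM in replicate 1 and 818 TPM in replicate 2 (848 ± 42.5 TPM). Hsp90aa1, the stress-inducible gene (chr12:110690605-110702728, minus strand), had 522 and 600 TPM (561 ± 54.9 TPM). Hsp90aa1 was the lower of the pair in both libraries, with a log2 ratio to Hsp90ab1 of -0.60 ± 0.21. On coding transcripts only that ratio was -1.15. Hsp90b1, which encodes the ER form Grp94, had 89.2 and 100.5 TPM, so that Hsp90ab1 exceeded it 8.94-fold (log2 ratio 3.16 ± 0.19). Hsp90ab1 also exceeded Trap1, the mitochondrial Hsp90 gene outside the rule, 20.8-fold (4.38 ± 0.15). On coding transcripts only the log2 ratios of Hsp90ab1 were 3.29 to Hsp90b1 and 3.97 to Trap1. Together Hspa8, Hsp90ab1 and Hsp90aa1 held 59.6% of the TPM of the 94 genes in replicate 1 and 57.4% in replicate 2.

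Genes of the factors that work with Hsp90 and Hsp70 were all detected. Stip1 encodes Hop, which bridges Hsp70 and Hsp90, and had 42.7 TPM in replicate 1 and 56.0 TPM in replicate 2, far below Hsp90ab1 (log2 ratio -4.11 ± 0.35). Hspbp1, a nucleotide exchange factor, had 41.6 and 38.4 TPM. In a list of 14 further partners all 14 were detected in both libraries, with medians of 24.3 and 29.2 TPM. They were led by the immunophilin Fkbp4 (89.2 and 91.3 TPM), the Hsp70-interacting St13 (83.3 and 78.0 TPM) and the phosphatase Ppp5c (88.5 and 63.8 TPM). Hspbap1, named for a protein that binds small heat shock proteins, had 0.69 and 0.82 TPM and was detected in neither library. Hspb11, a gene now known for a part of the ciliary transport complex, had no count in replicate 1 and 2.69 TPM in replicate 2.

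Of the J proteins, class A and B members act as general Hsp70 partners and class C members are diverse. In class A all 4 genes were detected in both libraries. Dnaja1, a cytosolic gene, had 91.3 TPM in replicate 1 against 63.5 TPM in replicate 2, and Dnaja2, its constitutive relative, 30.0 and 20.95 TPM. The mitochondrial Dnaja3 had 13.6 and 21.04 TPM, and Dnaja4 3.50 and 3.06 TPM. In class B 8 of 13 genes were detected in both. Dnajb1, which encodes the stress-inducible Hsp40, led with 48.3 and 41.0 TPM and lay below Dnaja1 in both libraries on total TPM (log2 ratio -0.77 ± 0.20). Counting only transcripts typed as coding, a choice made after the data were seen, turned that ratio round to 1.34, since coding transcripts carried 37.8% and 14.02% of the TPM of Dnaja1 and all of that of Dnajb1. For Dnajb1 only 1 transcript is listed, typed as coding, so its share could not be lower. Dnajb6 (31.1 and 29.1 TPM), the ER genes Dnajb9 (27.6 and 20.6 TPM) and Dnajb12 (13.9 and 20.5 TPM) and the cytosolic Dnajb4 (18.1 and 11.9 TPM) came next. Dnajb5 had no count in replicate 1 and 1.62 TPM in replicate 2.

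Class C was the largest group, with 23 of 28 genes detected in both libraries and medians of 9.43 TPM in replicate 1 against 7.22 TPM in replicate 2. Its highest members were Dnajc7 (69.8 and 54.1 TPM), which binds both Hsp70 and Hsp90, and the endosomal Dnajc13 (39.1 and 45.9 TPM). Dnajc8, linked to splicing, had 27.4 and 47.1 TPM. The mitochondrial Dnajc11 had 27.1 and 40.6 TPM, and Dnajc5, which encodes the cysteine string protein, 22.0 and 28.7 TPM. The neighbouring ranks of these 5 genes did not differ beyond their spread in every case, since Dnajc8 was below Dnajc13 in replicate 1 and above it in replicate 2. Dnajc6, which encodes the clathrin uncoating factor auxilin and is best known from neurons, was detected at 18.4 and 16.9 TPM, the highest level among the 18 genes listed as tissue-restricted. Of those 18 genes, 3 were detected in both libraries (Dnajc6, Hspb6 and Hspa2), and the median was 0 TPM in each library.

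The cytosolic chaperonin CCT folds actin and tubulin in a double ring of 8 different subunits, each the product of its own gene. The 7 subunit genes inside the rule were all detected in both libraries. Tcp1 had 117 TPM in replicate 1 and 103 TPM in replicate 2, Cct5 85.8 and 124 TPM, and Cct8 106.9 and 77.6 TPM. Cct3 had 87.1 and 69.5 TPM, Cct2 61.3 and 89.0 TPM, and Cct4 69.1 and 57.7 TPM. Cct7 was the lowest subunit gene in both libraries on total TPM, with 26.0 and 40.3 TPM. On coding transcripts only it was lowest in replicate 1, while in replicate 2 Cct8 (29.2 TPM) and Cct4 (30.9 TPM) lay below its 40.3 TPM. The highest of the 7 exceeded the lowest 4.49-fold in replicate 1 and 3.08-fold in replicate 2. The order of the others was not stable either, as Tcp1 was highest in replicate 1 and Cct5 in replicate 2. Cct6a, the eighth subunit gene, is typed as a processed transcript in the annotation used and so fell outside the rule. It had 47.4 TPM in replicate 1 and 86.6 TPM in replicate 2. The testis copies Cct6b and Cct8l1 had no count in replicate 1 and 0.13 and 0.09 TPM in replicate 2.

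**Figure D2:**
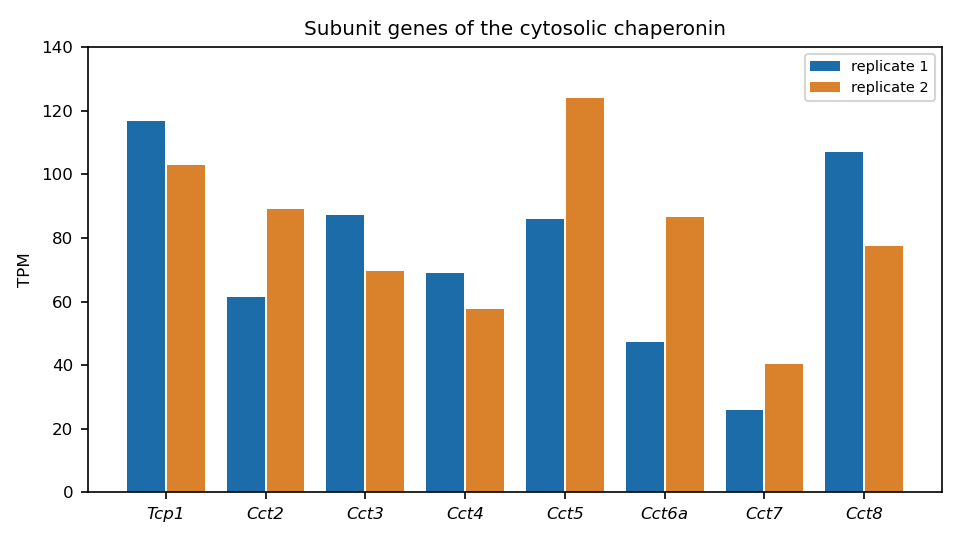
TPM (linear axis from 0) of the 8 subunit genes of the cytosolic chaperonin, with a bar for each library. Cct7 is lowest in both on this total TPM, at 26.0 TPM in replicate 1 against 40.3 TPM in replicate 2, though not in replicate 2 on coding transcripts only, and Cct6a lies outside the gene rule.

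Prefoldin hands unfolded actin and tubulin to CCT. All 9 prefoldin and related partner genes were detected in both libraries, with medians of 12.6 TPM in replicate 1 against 9.95 TPM in replicate 2. Txndc9 (39.4 and 18.0 TPM), Pfdn5 (12.6 and 36.5 TPM) and Pfdn6 (29.4 and 12.7 TPM) had the highest means, and each of these differed by more than 2-fold between the libraries. The mitochondrial chaperonin consists of Hsp60 and its lid Hsp10, and on total TPM the order of their genes was not the same in both libraries. Hspd1 had 45.1 TPM in replicate 1 against 70.8 TPM in replicate 2, and Hspe1 had 46.0 and 38.9 TPM. The log2 ratio of Hspe1 to Hspd1 was 0.03 in replicate 1 and -0.86 in replicate 2, a mean of -0.42 ± 0.63 that does not exceed its spread. On coding transcripts only, Hspe1 had 25.95 and 23.8 TPM and lay below Hspd1 in both libraries (log2 ratio -1.18). The annotated genes overlap on opposite strands, and the handling of strand is not known, so reads near the shared starts cannot be told apart.

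Small heat shock proteins hold unfolded proteins without using ATP. Of their 7 genes, only Hspb6 was detected in both libraries, with 3.93 TPM in replicate 1 against 9.49 TPM in replicate 2. Hspb8 had 3.11 TPM from 169 counts in replicate 1 and 0.03 TPM from 1 count in replicate 2. Hspb1, whose upstream stretch held 2 elements, had no count in replicate 1 and 0.78 TPM in replicate 2. The muscle and testis genes Hspb2, Hspb3, Hspb7 and Hspb9 had no count in either library. A count of 0 is a weak statement in replicate 1, and less so in replicate 2. Among 1640 nuclear coding genes that replicate 2 placed at 1 to 3 TPM, 26.1% were without a count in replicate 1 (95% exact binomial interval 24.0 to 28.3%). Among 1242 that replicate 1 placed there, 2.58% were without one in replicate 2 (1.77 to 3.62%). Both intervals treat the genes as independent and cover no variation between libraries. Whether genes without a count were missed or absent from those cells was not tested.

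All 6 Bag genes, whose products release clients from Hsp70, were detected in both libraries. Bag6, which handles misplaced membrane proteins (chr17:35135178-35147322, plus strand), had 130.1 TPM in replicate 1 and 101 TPM in replicate 2. Bag1 had 32.7 and 22.6 TPM, Bag2 13.6 and 21.7 TPM, Bag5 11.8 and 3.89 TPM, and Bag4 4.68 and 5.06 TPM. Bag3, the stress-inducible member that directs clients to autophagy, had 5.52 and 5.80 TPM, 4.74-fold below Bag1 (log2 ratio of Bag3 to Bag1 -2.25 ± 0.42). Among the heat shock factors only Hsf1, the main regulator of the heat shock response, was detected in both libraries, at 18.2 and 20.6 TPM. Hsf2, a relative active in development, had 0.05 TPM from 4 counts in replicate 1 and 1.93 TPM in replicate 2. Hsf4, known from the lens, had 0 and 0.54 TPM, Hsf5, known from testis, 1.14 and 0 TPM, and Hsf3 no count in either library.

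Stress-inducible cytosolic genes were present at a lower median level than constitutive ones. Of 10 stress-inducible genes, 8 were detected in both libraries, with medians of 23.7 TPM in replicate 1 against 25.3 TPM in replicate 2. All 8 measured constitutive genes, without Hspa14, were detected in both, with medians of 60.4 and 51.8 TPM. On the log2(TPM + 1) scale the stress-inducible median minus the constitutive median was -1.34 in replicate 1 and -1.22 in replicate 2 (-1.28 ± 0.08), more than the spread between the libraries. The size rests on which genes and transcripts are counted, as it was -0.61 with detected members only and -0.71 with coding transcripts only. The lists overlapped widely, since Hsp90aa1 exceeded all constitutive genes but Hspa8 and Hsp90ab1 in both libraries.

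Little of the stress-inducible list differed between the libraries. Of 9 stress-inducible genes detected in either library, 5 were higher in replicate 1 and 4 in replicate 2, with a median difference of 0.15 on the log2(TPM + 1) scale. Of these 9 genes 1 passed 2-fold, Hspb8 (3.11 TPM in replicate 1 and 0.03 TPM in replicate 2), against 23.3% of coding genes. Immediate early genes, which are switched on within minutes by many stimuli, were all higher in replicate 1 among the 13 detected in either library, with a median difference of 0.61 against 0.09 for all coding genes. Of 11202 coding genes detected in either library, 6153 were higher in replicate 1. The 12 stem and progenitor markers also had a median difference of 0.50, with 9 higher in replicate 1 and 3 in replicate 2. Among coding genes with a mean of at least 10 TPM the median difference was 0.16. The immediate early medians were 45.6 TPM in replicate 1 against 25.3 TPM in replicate 2, led by Zfp36 (231 and 122 TPM) and Dusp1 (168 and 106 TPM). What set the levels of the stress-inducible and immediate early lists was not tested.

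Cytosolic chaperone genes had higher median levels than those of the ER and of mitochondria. Both libraries detected 32 of 36 measured cytosolic genes, Cct6a among them, whose medians were 34.8 TPM in replicate 1 against 40.6 TPM in replicate 2. All 13 ER genes were detected in both, with medians of 12.0 and 13.5 TPM, as were all 8 mitochondrial genes, with medians of 22.3 and 30.0 TPM. The cytosolic median exceeded the ER median by 1.46 in replicate 1 and 1.52 in replicate 2 on the log2(TPM + 1) scale (1.49 ± 0.04). It exceeded the mitochondrial median by 0.65 and 0.49 (0.57 ± 0.11). Both gaps were larger than the spread between the libraries, and the lists overlapped, as Hspa5 stood above every cytosolic gene but Hspa8, Hsp90ab1, Hsp90aa1 and Bag6 in replicate 1.

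**Figure D3:**
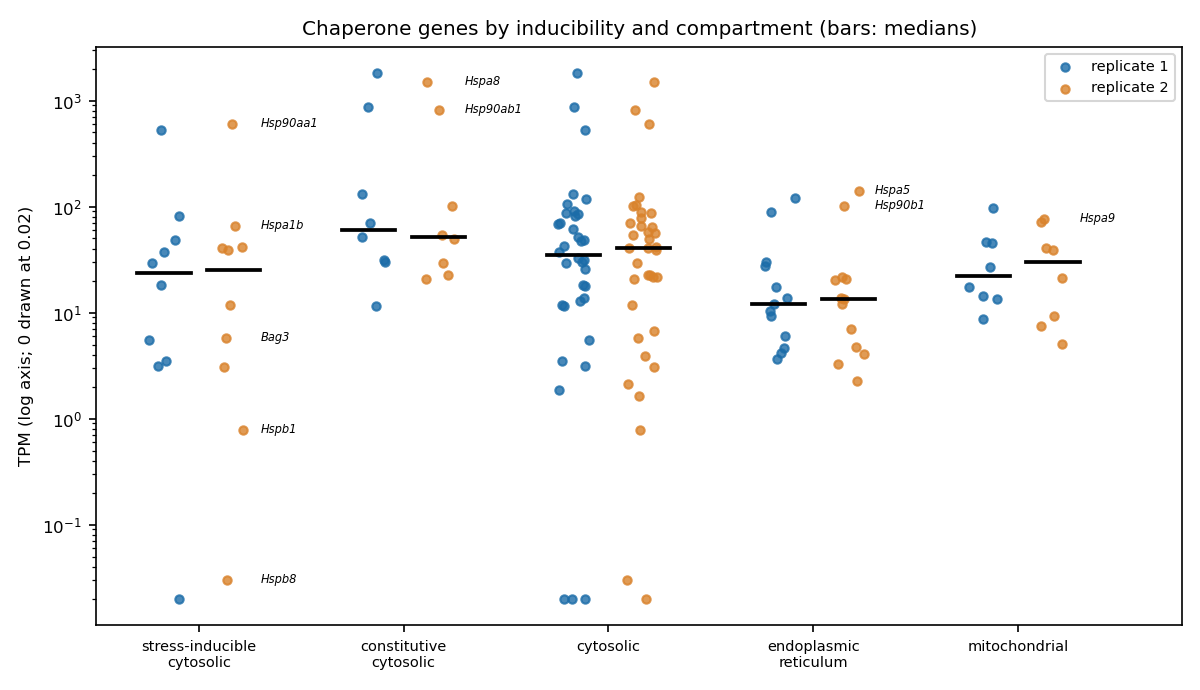
TPM (log axis, 0 drawn at 0.02) of each gene in 5 lists, replicate 1 left and replicate 2 right within a list, with black bars at the medians. The stress-inducible medians (23.7 and 25.3 TPM) lie below the constitutive ones (60.4 and 51.8 TPM), and the cytosolic medians (34.8 and 40.6 TPM) lie above those of the ER and of mitochondria.

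Within the ER, the 5 genes known to be induced by unfolded protein had medians of 27.6 TPM in replicate 1 against 20.6 TPM in replicate 2. They were Hspa5, Hsp90b1, Dnajb9, Dnajb11 (9.36 and 13.5 TPM) and Dnajc3, which encodes an inhibitor of the kinase PERK (12.0 TPM in each). Of 12 other ER folding genes, 11 were detected in both libraries, with medians of 25.3 and 30.9 TPM. The lectin chaperones Calr (273 and 293 TPM) and Canx (98.6 and 144 TPM) and the disulphide isomerase Pdia3 (64.7 and 92.3 TPM) were highest. All 12 were higher in replicate 2, with a median difference of -0.50 for replicate 1 minus replicate 2, while the 13 ER chaperone genes had a median of -0.13. Of 11202 coding genes detected in either library, 5035 were higher in replicate 2, and the median difference was 0.09. Sdf2l1, a BiP cofactor, had no count in replicate 1 and 8.73 TPM in replicate 2. Markers of neutrophils and B cells were also higher in replicate 2, and their part in this difference was not tested. In mitochondria all 9 partner genes were detected in both libraries, with medians of 11.7 and 8.63 TPM. Trap1 (39.1 and 42.4 TPM), the import factor Timm44 (11.7 and 29.1 TPM) and the protease Lonp1 (19.7 and 15.1 TPM) led them.

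The deposited transcript tables show that much of the TPM of the leading genes was assigned to transcripts not typed as coding. Transcripts typed as coding carried 50.9% of the TPM of Hspa8 in replicate 1 and 53.8% in replicate 2, and 1 retained intron transcript of 456 bases alone carried 28.0% and 21.5%. Coding transcripts carried 51.5% and 50.4% for Hsp90aa1, 72.8% and 76.9% for Hsp90ab1, and 39.2% and 43.9% for Hspa5. For Hspa1a, Hspa1b, Dnajb1, Hspd1, Stip1 and Hsf1 the share was 100% in both libraries. All of these but Hspd1 have only 1 transcript listed, typed as coding, so their share was fixed by the annotation. Over the 94 genes, coding transcripts held 63.4% and 64.3% of the summed TPM, with transcripts of unmatched type counted as not coding. Of the 68 genes detected in both libraries, 8 in replicate 1 and 11 in replicate 2 had under 50% of their TPM on coding transcripts, 6 of them in both. For 1 of the 8 (Hspa4l) and 2 of the 11 (Hspa4l and Hsph1), most of the TPM lay on transcripts whose type was not matched, which may be coding. The median share over those genes was 99.1% in replicate 1 and 83.6% in replicate 2, against 100% and 88.8% over 9769 nuclear coding genes. Of 49 such genes with more than 1 transcript, 32 had the same leading transcript in both libraries and 17 did not.

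**Figure D4:**
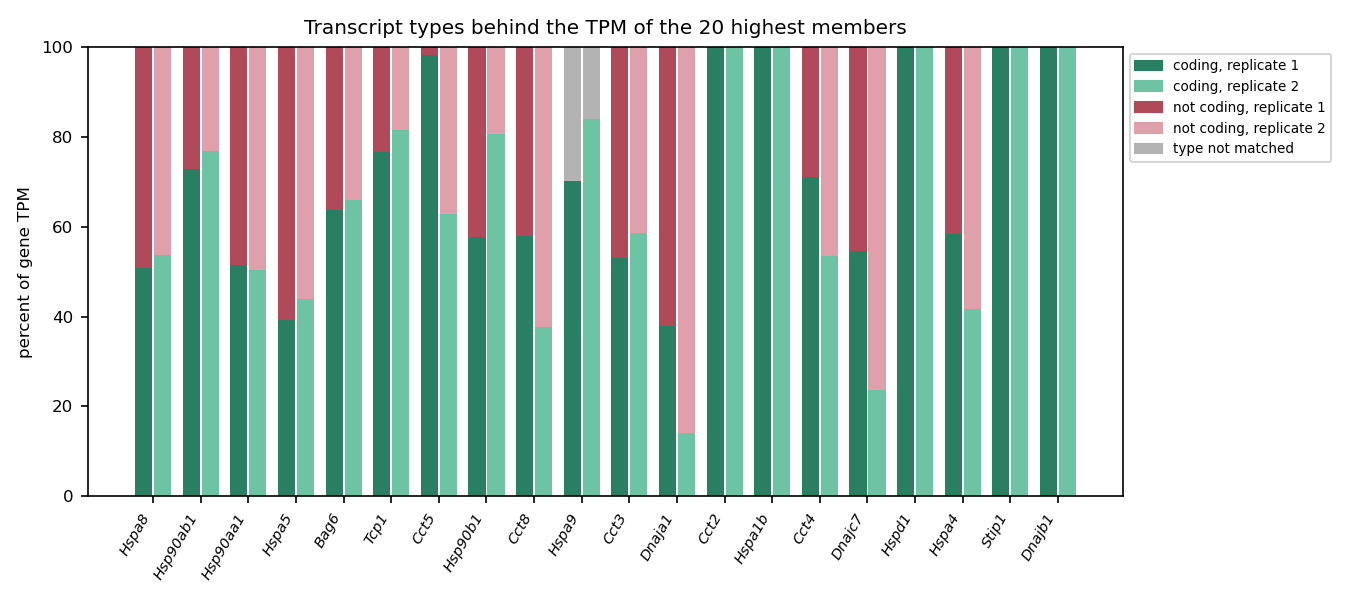
Percent of the deposited gene TPM (axis 0 to 100) carried by transcripts typed as coding (green) or not (red) in the 20 chaperone genes of highest mean TPM, with the darker bar for replicate 1 and the lighter for replicate 2, and grey for transcripts whose type was not matched. Hspa8 reaches 50.9% and 53.8% coding, while Hspa1b, Dnajb1, Hspd1 and Stip1 reach 100%. Hspa1b, Dnajb1 and Stip1 have only 1 transcript listed, typed as coding, so their share could not be lower.

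Few chaperone genes differed strongly between the libraries. Of the 76 genes detected in either library, 12 (15.8%) differed by more than 2-fold on the log2(TPM + 1) scale, against 23.3% of 11202 coding genes. Of these, 7 were higher in replicate 1 (9.21%, against 11.2% of coding genes) and 5 in replicate 2 (6.58%, against 12.1%). The median absolute difference was 0.44 for the chaperone genes and 0.49 for the coding genes. With a mean of at least 10 TPM, 1 of 48 chaperone genes passed 2-fold (2.08%), against 798 of 5993 coding genes (13.3%). The median absolute difference of these 2 sets was nearly equal, at 0.36 and 0.38.

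That gene was Dnajc1, an ER member, with 30.0 TPM in replicate 1 and 13.7 TPM in replicate 2, a difference of 1.08 on the log2(TPM + 1) scale. It overlaps Mllt10 on the opposite strand, whose reads cannot be told apart from its own without strand. The mitochondrial Dnajc15 (14.3 and 5.11 TPM) was higher in replicate 1, as were Bag5, Hspb8, Hspa12a and Hsf5, with differences of 1.06 to 2.00. Dnajc12, a partner of aromatic amino acid hydroxylases, had 3.85 TPM in replicate 1 and 0.97 TPM in replicate 2 (difference 1.30). Dnajc27 (0.97 and 4.44 TPM) and Hspb6 were higher in replicate 2, by -1.47 and -1.09 for replicate 1 minus replicate 2. The higher library held 100 counts or more for each of these 9 genes, and all but Dnajc1 averaged under 10 TPM. Hspb6 likewise overlaps genes on the opposite strand, as do, among the more abundant genes, Tcp1, Hsp90b1, Cct8, Dnaja1, Dnajc7, Dnajc13, Hspa1a, Dnajc8 and Cct7, so their levels carry the same uncertainty.

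**Figure D5:**
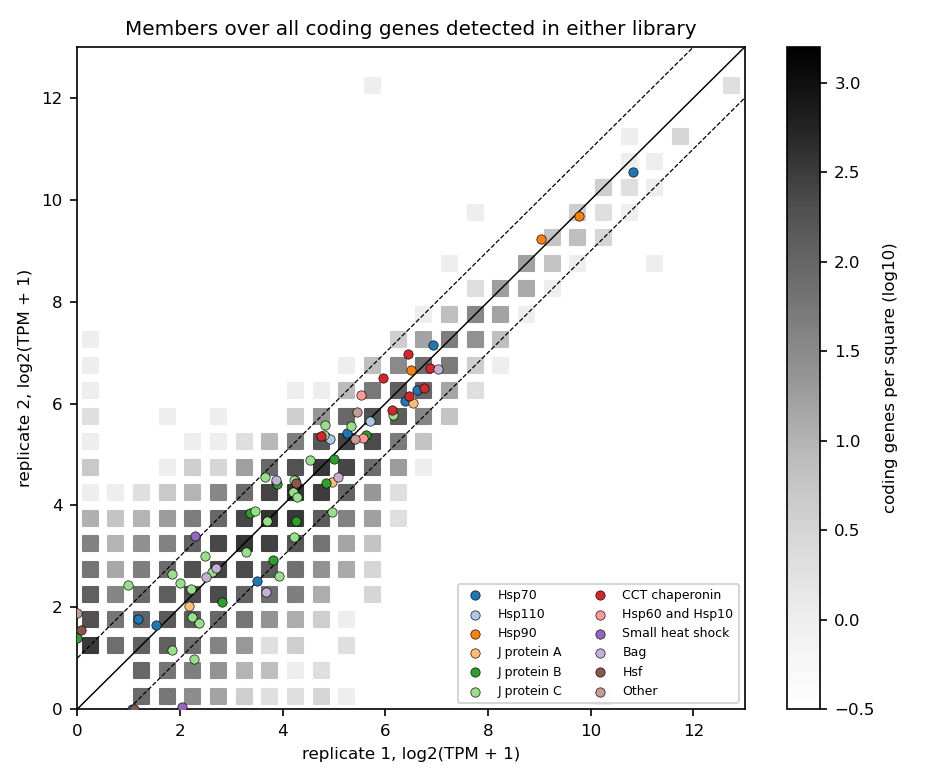
Log2(TPM + 1) in replicate 2 against replicate 1 for the 76 chaperone genes detected in either library, coloured by family, over grey squares for the number of coding genes. The dashed lines mark 2-fold, which 12 of the 76 genes pass, nearly all of them at low levels.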

How the data were processed

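Total RNA sequencing of 2 libraries of 1 group was analysed. The authors deposited, for genes and transcripts, the expected count, an estimate of reads in which a read that fits several places is divided among them. The deposited TPM, and a posterior mean TPM beside it, are scaled to a fixed sum per library. A deposited FPKM column was not used for results. For each transcript the authors also deposited its percent of the gene's abundance. The deposited bounds of credibility intervals of the TPM, recorded as a score, are not printed. A text that accompanies the deposited tables names mm10 and GENCODE M4, and the column names match those of RSEM, per the file headers. For the aligner, program versions and strand, the sources used here give nothing.

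Symbols, biotypes and gene positions are those of GENCODE M21 (GRCm38, the same build), matched on identifiers without version. Spike-ins and other rows that name no mouse gene were left out, at 0.012% (replicate 1) and 0.00719% (replicate 2) of the expected counts. Promoters are RefSeq windows of 250 bases before and 50 after a start. Of the 94 genes, 48 overlap another gene, 41 of them on the opposite strand, and without strand the reads of such pairs cannot be told apart. Near-identical copies (at least 95% identity over 300 bases) were found with BLAST 2.17.0.

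The gene set, defined by symbol alone, and the lists were nevertheless proposed with earlier results of these data known. Named are all members outside the J proteins, the 5 highest J proteins of each class, members past 2-fold with at least 100 counts or detected in 1 library only, the genes of 14 ratios, and the 3 highest genes of each partner list with those not detected in both. Any other gene in the text was singled out with its values in view. List differences use a pseudocount of 1 TPM, ratios 0.1 TPM, and a log2(TPM + 1) difference understates that of low genes. Expected counts were rounded only for TMM factors (edgeR 4.0.16) and size factors (DESeq2 1.42.0, R 4.3.3). Tables and figures were made with Python 3.11.15, using pandas 2.3.3, numpy 2.4.6, matplotlib 3.10.9 and scipy 1.17.1. The 2-fold call was tested on simulated counts of genes of at least 10 TPM, with planted changes and an assumed spread. The list difference was checked on made-up levels, and no other step was simulated. Alternatives were other TPM and count thresholds, pseudocounts, posterior mean or rescaled TPM, other normalisations, detected members only, and, added after seeing the data, coding transcripts only. In all values on coding transcripts only, transcripts of unmatched type counted as not coding. Hsph1 thus went from 38.65 to 14.02 TPM in replicate 2, and Cct6a entered the cytosolic list at 0 TPM.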

Additional observations from a re-analysis of the deposited data

How the results depend on the processing

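No paired analysis was possible because there is only 1 group. The genes detected numbered 53 to 72 under all alternatives (68 in the text), and those past 2-fold between libraries 11 to 14 (12 in the text). The share past 2-fold was 14.5% to 18.4% of chaperone genes, against 18.9% to 28.7% of all coding genes. With DESeq2 size factors it was 14.5% against 18.9%, a narrower gap than the 15.8% against 23.3% in the text. The stress-inducible minus constitutive difference of -1.28 was -0.61 with detected members only and -0.71 with coding transcripts only, and -1.34 to -1.22 leaving out either library. The cytosolic minus ER difference of 1.49 was 1.555 with a pseudocount of 0.1 TPM, 1.54 with TPM rescaled to nuclear coding genes, 1.75 with detected members only and 1.04 with coding transcripts only. The cytosolic minus mitochondrial difference of 0.57 was 0.83 with detected members only and 0.79 with coding transcripts only. Of 14 ratios, 12 kept their sign throughout. Dnajb1 over Dnaja1 turned from -0.77 to 1.34 with coding transcripts only, and Hspe1 over Hspd1 ranged from -0.86 to 0.029 leaving out either library and was -1.18 with coding transcripts only. On coding transcripts Hspa1a over Hspa8 was -4.45 in place of -5.38, and Hspa1b over Hspa8 -3.55 in place of -4.49. Hsp90aa1 over Hsp90ab1 was -1.15 in place of -0.60, and Stip1 over Hsp90ab1 -3.69 in place of -4.11. Hspa8 over Hspa9 was 3.70 in place of 4.25, and Hsp90ab1 over Trap1 3.97 in place of 4.38. Among the other values 155 stayed within the spread between libraries. That number includes values leaving out either library, which lie within the spread by construction and so show no stability. Another 54 moved further with no change of sign. Of these, 23 moved because rescaling to nuclear coding genes multiplies every TPM of a library, 25 moved with coding transcripts only and 6 with posterior mean TPM. For the other changes the cause was not tested. Genes near 1 TPM are the least certain, and counts of 0 among them were more common in replicate 1, the library with more counts, for which the cause was not tested either.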

Other observations

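Of the 94 genes, 11 have a copy of at least 95% identity over 300 bases elsewhere in the annotation. A copy typed as a pseudogene exists for 7 of them, and for 6 of these it was assigned counts, while Hspa1a and Hspa1b are each other's copy and those of Dnajc25 and Hspe1 are typed as coding. For Hspa8, Gm15459 (99.7% identical over 1941 bases) had 19.0 TPM in replicate 1 against 16.5 TPM in replicate 2, while Gm8355 had 17.6 and 49.3 TPM. Together the copies of Hspa8 held 1.87% and 2.71% of the counts of gene and copies. The copies of Hsp90aa1 held 2.04% and 1.13%, and that of Hspd1 5.52% and 1.95%. For Dnajb6 the share was 28.5% in replicate 1 and 2.69% in replicate 2, and Gm13414 alone had 17.0 TPM in replicate 1 but 0.05 TPM in replicate 2. Whether these reads came from the copies or from their parent genes was not tested.

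The row that most transcripts of Hspa14, a ribosome-associated Hsp70 gene, now belong to carries the identifier of Gm45902, and 6 of its 8 transcripts are named for Hspa14. Its level was 44.9 TPM in replicate 1 against 39.0 TPM in replicate 2, and it entered no count of the 94 genes.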
